A study of Mus musculus with 24 samples.

Results

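The genes described here encode the synaptic vesicle and release machinery: the proteins that fill, dock, prime, fuse and retrieve the vesicles of nerve terminals. A list of 46 such genes was read on the arrays through every probe set (a group of probes that together read 1 transcript or a stretch of it) whose platform annotation gives a single symbol, older aliases included. All 46 were found, on 113 of the 45037 probe sets tested, among 18193 genes that carry 1 symbol. Each gene was then given by its brightest probe set, judged by the mean over the arrays. The list was chosen by function, with earlier results of these data known. By role it holds 8 calcium sensors, 8 synapsins and vesicle membrane proteins, 6 SNARE proteins and complexins, 3 proteins of SNARE disassembly, 6 RAB3 proteins and effectors, 5 priming factors, 3 active zone scaffolds, 5 endocytosis proteins and 2 vesicular glutamate transporters.

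As background, an action potential opens calcium channels at the active zone of a nerve terminal, and calcium bound by a synaptotagmin drives a docked and primed vesicle to fuse. Fusion is carried out by the zippering of SNARE proteins on the vesicle and the plasma membrane. The membrane is then taken back by clathrin and dynamin, and the vesicle is refilled with transmitter. In the amygdala and the hippocampus, both needed for contextual fear memory, most glutamatergic cells use one of 2 vesicular glutamate transporters, VGLUT1 (Slc17a7) or VGLUT2 (Slc17a6).

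The study measured total RNA of amygdala and hippocampus from male mice of 2 lines selected for contextual fear conditioning, in which freezing in a shock-paired chamber is scored. The groups were amygdala of the low freezing line (line 24), amygdala of the high freezing line (line 25), hippocampus of the low freezing line and hippocampus of the high freezing line, with 6 arrays each and 24 in all. The labels name no treatment, transgene or control strain, and the animals' age is not given in the sources used here. Each line is 1 breeding line, and the labels do not say whether arrays stand for single animals or pools, so p-values measure the spread between these arrays, which may be partly technical. The titles number the low line's arrays 1 to 6 and the high line's 7 to 12 in each tissue.

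Values below are log2(signal + 16) of the authors' scaled intensities, with the SD over arrays. Differences are amygdala minus hippocampus, averaged over both lines, unless a line comparison is named. A gene was called where limma's Benjamini-Hochberg adjusted p, over all 45037 probe sets, was under 0.05. Array medians of the linear signal ran from 43.3 to 55.7. The mean log2 value of the 46 genes was 9.90 to 10.00 in amygdala of the low line, 9.93 to 10.09 in amygdala of the high line, 9.85 to 9.94 in hippocampus of the low line and 9.83 to 9.95 in hippocampus of the high line. Each of these ranges overlaps every other. Actin 5′ to 3′ ratios, a sign of RNA integrity, ran from 0.517 to 0.582 in hippocampus. In amygdala, high line arrays 7 and 8 stood apart at 0.301 and 0.339, and the other 10 lay between 0.496 and 0.630. The Gapdh ratios of arrays 7 and 8 (1.03 and 1.16) were also below those of the other 10 amygdala arrays (1.269 or more), and array 7 had the highest mean of the 46 genes (10.09). The median within-group SD of the 46 genes was 0.114, against 0.229 for all genes.

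The tissues differed in their cells and in a control signal. Markers of dentate granule cells were higher in hippocampus for 5 of 6 genes (mean log2 level 5.78 to 6.51 in amygdala, 8.08 to 8.67 in hippocampus), and markers of CA pyramidal cells for 6 of 7 (7.75 to 8.07 against 8.83 to 9.13). The remaining gene of each list was called higher in amygdala (0.36 and 0.91). Striatal projection neuron markers were higher in amygdala for 8 of 8 genes (8.67 to 9.57 against 6.81 to 7.07), GABA neuron markers for 6 of 9 (8.67 to 8.89 against 8.12 to 8.41) and thalamus and habenula markers, which include Slc17a6, for 3 of 7 (7.11 to 7.59 against 6.66 to 6.91). Of the GABA neuron markers 1 was called lower in amygdala. Of 7 oligodendrocyte markers 5 were lower in amygdala (9.37 to 9.70 against 9.57 to 10.31), and so were 4 of 7 astrocyte markers (9.76 to 9.92 against 10.04 to 10.25), with 2 called higher. Meningeal fibroblast markers were lower in amygdala for 5 of 7 (6.27 to 7.20 against 7.02 to 7.74), and microglia markers higher for 3 of 8 (7.83 to 8.09 against 7.59 to 7.91). Pan-neuronal markers lay at 10.83 to 10.94 in amygdala and 10.68 to 10.85 in hippocampus, with 5 of 10 called higher and 3 lower in amygdala. The 18S ribosomal RNA control gave a linear signal of 295 to 1525 in amygdala and 3600.0 to 7093 in hippocampus, without overlap. The part of these differences in the results below was not tested, and in bulk tissue fewer cells of a type and less RNA per cell cannot be told apart.

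Between the tissues, 27 of the 46 genes were called, 11 with more signal in amygdala and 16 with more in hippocampus. The priming factor Unc13c, the glutamate transporter Slc17a6 and the calcium sensor Doc2a stood more than 2-fold higher in amygdala, and no member was that much higher in hippocampus, where Cplx2 came nearest. Complexins, the ATPase Nsf, the active zone scaffolds Pclo and Erc2 and 4 of the 5 endocytosis genes were higher in hippocampus. Within single lines this held less far: 2 of 5 endocytosis genes were called in the low line and 1 in the high line, Erc2 in neither, and Pclo turned direction with the mean of its probe sets (0.11, adjusted p = 0.120). Over all genes, 30.1% were called, 17.0% toward amygdala and 13.1% toward hippocampus, against 58.7%, 23.9% and 34.8% of the 46. Brighter genes are called more often on these arrays: of the 5055 genes with a mean of at least 8, a level set after the data were seen, 51.8% were called, against 25 of the 42 members above it (59.5%). The median difference of the 46 was -0.06, against 0.005 for all genes, and the median size of the difference was 0.21 against 0.156. Most changes were small: 7 of the 46 were called with more than 1.5-fold (6.28% of all genes were), and 3 with more than 2-fold (1.92%).

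**Figure D1:**
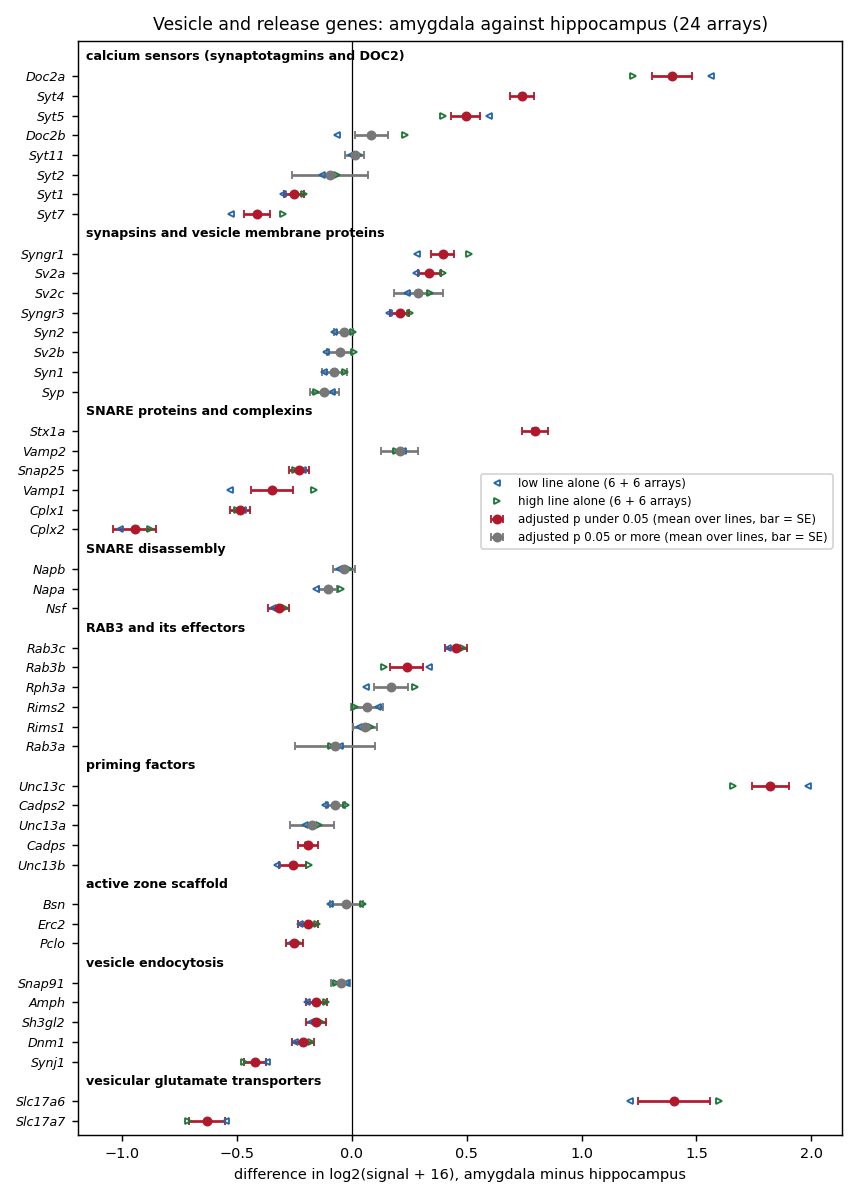
Amygdala minus hippocampus difference of log2(signal + 16) for each of the 46 genes, grouped by role: filled points are the mean over lines with limma's SE as bars, coloured by the call at an adjusted p under 0.05, and open triangles are each line alone. Unc13c (1.82), Slc17a6 (1.40) and Doc2a (1.39) lie farthest to the amygdala side and Cplx2 (-0.94) farthest to the hippocampus side, while all 5 endocytosis genes lie below 0.

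Promoter sequence is shown for 6 of the genes whose arrays did not overlap between the tissues, 3 from each side, to set the letters beside the direction. RefSeq windows of the GRCm38.p6 build, 250 bases before to 50 after a gene's start, were matched for 37 of the 46 genes (48 windows, since some genes have several starts); Syt4, Syt5, Syt7, Doc2a, Doc2b, Syngr3, Snap25, Vamp2 and Rims2 had no entry. The 250 bases before the start are printed 5′ to 3′ on the gene's strand, with capitals marking the GC box GGGCGG, a letter pattern bound by SP1-type factors, or its reverse complement. Unc13c lies at chr9:73969038-73969287 on the minus strand, Slc17a6 at chr7:51621580-51621829 on the plus strand (the first of its 2 windows), and Stx1a at chr5:135023232-135023481 on the plus strand. Slc17a7 lies at chr7:45163671-45163920 on the plus strand, Cplx2 at chr13:54302306-54302555 on the plus strand, and Cplx1 at chr5:108550028-108550277 on the minus strand.
Unc13c: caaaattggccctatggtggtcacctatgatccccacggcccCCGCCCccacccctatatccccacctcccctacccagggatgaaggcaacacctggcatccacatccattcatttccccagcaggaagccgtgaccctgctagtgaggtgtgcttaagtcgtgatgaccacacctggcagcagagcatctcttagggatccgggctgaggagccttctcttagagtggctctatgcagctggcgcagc
Slc17a6: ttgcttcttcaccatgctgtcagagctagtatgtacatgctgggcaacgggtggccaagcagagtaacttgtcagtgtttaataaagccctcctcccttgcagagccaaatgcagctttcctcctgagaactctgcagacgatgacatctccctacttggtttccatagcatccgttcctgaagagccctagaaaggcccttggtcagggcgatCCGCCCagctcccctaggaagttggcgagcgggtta
Stx1a: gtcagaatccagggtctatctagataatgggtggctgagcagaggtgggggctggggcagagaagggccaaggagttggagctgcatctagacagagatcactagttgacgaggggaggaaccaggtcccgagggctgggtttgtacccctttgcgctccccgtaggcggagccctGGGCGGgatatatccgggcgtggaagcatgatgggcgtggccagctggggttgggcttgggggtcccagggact
Slc17a7: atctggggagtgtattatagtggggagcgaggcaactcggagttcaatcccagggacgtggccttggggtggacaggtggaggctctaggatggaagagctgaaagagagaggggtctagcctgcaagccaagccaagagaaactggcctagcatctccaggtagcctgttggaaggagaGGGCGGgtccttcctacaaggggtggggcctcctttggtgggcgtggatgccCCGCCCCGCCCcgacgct
Cplx2: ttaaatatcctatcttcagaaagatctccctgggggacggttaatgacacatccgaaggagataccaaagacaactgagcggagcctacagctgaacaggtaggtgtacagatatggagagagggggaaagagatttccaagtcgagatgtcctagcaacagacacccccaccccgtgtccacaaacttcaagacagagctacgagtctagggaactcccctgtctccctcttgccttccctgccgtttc
Cplx1: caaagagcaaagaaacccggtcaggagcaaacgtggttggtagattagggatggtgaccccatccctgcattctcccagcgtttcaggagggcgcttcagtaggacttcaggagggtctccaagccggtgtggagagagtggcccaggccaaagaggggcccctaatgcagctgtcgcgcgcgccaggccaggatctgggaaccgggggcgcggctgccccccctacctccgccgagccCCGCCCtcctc

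In these printed stretches, both strands and overlapping matches counted, the GC box matched 1 time each for Unc13c, Slc17a6, Stx1a and Cplx1, 3 times for Slc17a7 and 0 times for Cplx2. Neither the cyclic AMP response element TGACGTCA nor TATAAA was found in them on either strand. Their GC content was 58.8%, 53.2% and 62.0% for Unc13c, Slc17a6 and Stx1a, and 61.2%, 50.8% and 64.8% for Slc17a7, Cplx2 and Cplx1, so the sides of the tissue comparison overlap. Whole 300-base windows were scored by whether a motif was present on either strand. The GC box stood in 64.6% of the members' 48 windows and in 35.7% of all 32851 windows. The response element stood in 3 members' windows (6.25%; Sh3gl2, Napa and Syn1) and in 1.79% of all, and TATAAA in 6.25% and 13.6%. Median GC content was 61.7% for the members' windows and 52.7% for all. By call, the GC box stood in 87.5% of 8 windows of genes higher in amygdala, 62.5% of 16 windows of genes higher in hippocampus and 58.3% of 24 windows of genes not called. A match describes letters in the window and no binding was measured. The members lie on 19 chromosomes, with at most 6 on one (chromosome 7).

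Among the calcium sensors, Doc2a, Syt4 and Syt5 were higher in amygdala, and Syt1 and Syt7 in hippocampus. Doc2a, a soluble sensor with high calcium affinity linked to spontaneous and asynchronous release, ran from 7.92 to 8.48 (median 8.34) on the 12 amygdala arrays and from 6.41 to 7.51 (median 6.89) on the 12 hippocampus arrays. Every amygdala array thus lay above every hippocampus array, and the means of 8.29 ± 0.16 and 6.90 ± 0.33 (SD, n = 12 each) differed by 1.39 ± 0.09 (SE), a 2.63-fold difference (limma, adjusted p = 8.37e-12). It is read by 1 probe set only. Syt4, an isoform whose first C2 domain does not bind calcium in the usual way and which is found on dense-core vesicles, ran from 10.37 to 10.73 (median 10.55) in amygdala and from 9.60 to 10.00 (median 9.84) in hippocampus. The ranges were apart, the difference was 0.74 ± 0.05 (SE; 1.67-fold, adjusted p = 8.09e-11), and it was 0.74 in each line alone. Syt5 ran from 8.14 to 8.75 in amygdala and from 7.73 to 8.14 in hippocampus, so that the ranges touched, with a difference of 0.50 ± 0.06 (SE, adjusted p = 1.66e-06).

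Syt1, the sensor of fast synchronous release, ran from 12.20 to 12.40 (median 12.32) in amygdala and from 12.42 to 12.78 (median 12.55) in hippocampus. These ranges did not overlap although the difference was only -0.25 ± 0.04 (SE, adjusted p = 8.51e-05). Of the 3 other Syt1 probe sets, 2 were called with -0.61 and the last stood at -0.04. Syt7, a slow sensor of asynchronous release and facilitation, ran from 9.19 to 9.62 (median 9.49) in amygdala and from 9.57 to 10.15 (median 9.90) in hippocampus. The ranges met at their ends, with a difference of -0.41 ± 0.06 (SE, adjusted p = 4.55e-06). In the low line alone the Syt7 difference was -0.53, and in the high line alone -0.30, where it missed the threshold (adjusted p = 0.0558). Of its 3 other probe sets 1 was called, at -0.85. Syt2 (-0.10, adjusted p = 0.726), Doc2b (0.09, adjusted p = 0.422) and Syt11 (0.01, adjusted p = 0.866) were not called. The other Doc2b probe set was called higher in amygdala. For Syt11, a synaptotagmin that does not bind calcium, all 4 other probe sets were called lower in amygdala, by -0.23 to -0.49, so the probe set that stands for the gene differs from the rest.

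**Figure D2:**
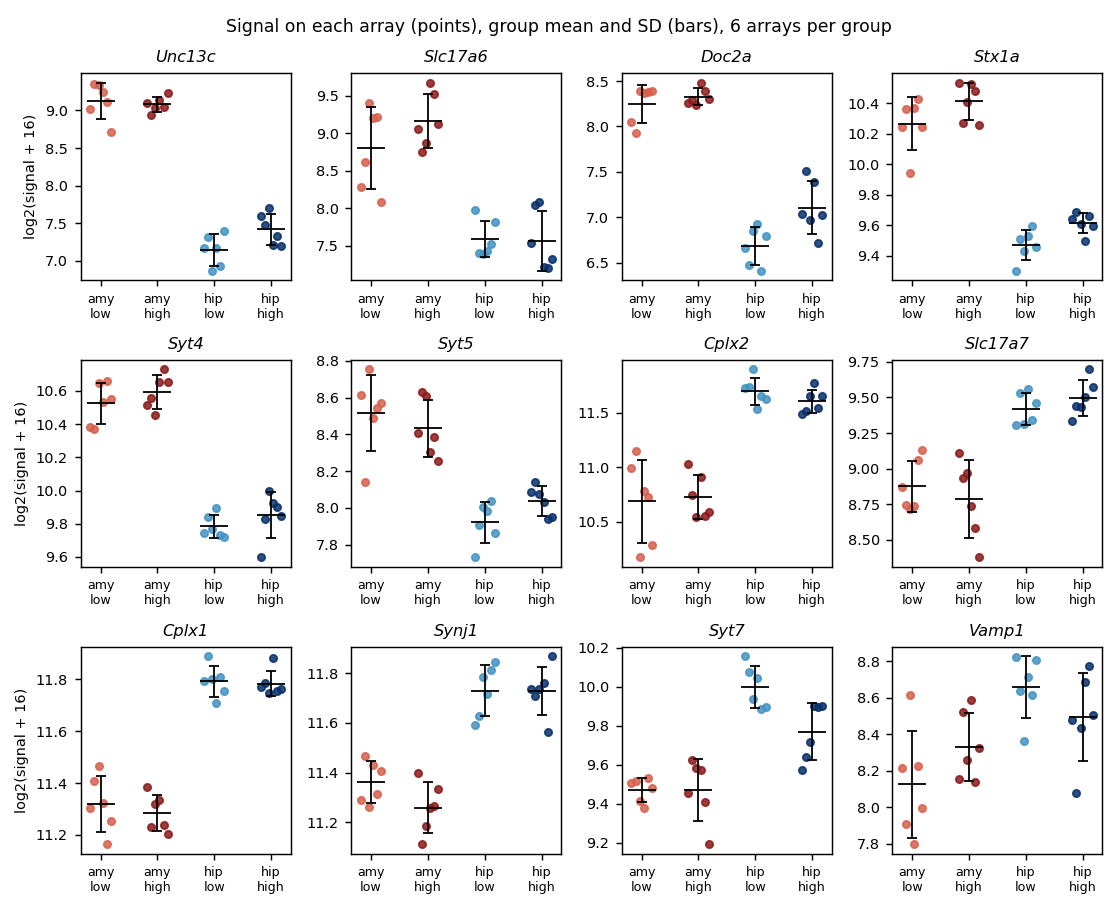
Log2(signal + 16) of the 6 called members with the largest difference in each direction, by tissue (amy, amygdala; hip, hippocampus) and line; each point is 1 array, with the group mean and SD as bars. For Unc13c, Doc2a, Stx1a and Syt4 the amygdala points all lie above the hippocampus points and for Cplx2 and Slc17a7 all below, in both lines.

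Of the 8 synapsins and vesicle membrane proteins 3 were called, all higher in amygdala. Syngr1, a synaptogyrin with 4 membrane spans, ran from 10.27 to 10.79 (median 10.45) in amygdala and from 9.90 to 10.16 (median 10.09) in hippocampus. Its difference was 0.40 ± 0.05 (SE, adjusted p = 9.93e-07), but its 2 other probe sets gave -0.33, called in the opposite direction, and -0.15. With the mean of its 3 probe sets the Syngr1 difference was -0.03 (adjusted p = 0.710), so its direction rests on the choice of probe set. Sv2a, the vesicle glycoprotein that binds levetiracetam, ran from 10.17 to 10.44 in amygdala and from 9.75 to 10.10 in hippocampus, without overlap, with a difference of 0.34 ± 0.05 (SE, adjusted p = 9.05e-06). Syngr3 differed by 0.21 (adjusted p = 6.56e-04; not called in the low line alone, 0.177), and its other probe set was called the same way at 0.33. Synaptophysin (Syp, -0.12), the synapsins Syn1 (-0.07) and Syn2 (-0.03), which tether vesicles to the cytoskeleton, and Sv2b (-0.05) were not called, with adjusted p of 0.177, 0.364, 0.608 and 0.534. However, 2 of the 5 other Syn2 probe sets were called higher in amygdala, and the other Sv2b probe set was called lower. Sv2c stood at 0.29, just outside the threshold (adjusted p = 0.0505). It was also the single member outside the brightest 60% of probe sets, and 45 of 46 would have passed a filter at that level.

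The SNARE group split by protein. Stx1a, the plasma membrane syntaxin, was higher in amygdala, while Cplx1, Cplx2, Snap25 and Vamp1 were higher in hippocampus. Stx1a ran from 9.94 to 10.53 (median 10.37) in amygdala and from 9.30 to 9.69 (median 9.56) in hippocampus, without overlap. Its difference was 0.80 ± 0.06 (SE; 1.74-fold, adjusted p = 7.61e-11), 0.80 in each line alone, and 0.81 on its other probe set. Cplx2, a complexin that clamps and then promotes fusion at the assembled SNARE complex, ran from 10.17 to 11.15 (median 10.73) in amygdala and from 11.49 to 11.90 (median 11.65) in hippocampus. All hippocampus arrays lay above all amygdala arrays, by -0.94 ± 0.09 (SE; 1.92-fold, adjusted p = 2.99e-08), and the 2 other probe sets were called the same way at -0.36 and -0.32. Amygdala arrays of the low line spread more for Cplx2 (SD 0.385) than those of the high line (0.204).

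Cplx1 ran from 11.16 to 11.47 (median 11.31) in amygdala and from 11.71 to 11.89 (median 11.78) in hippocampus. The ranges were apart, with a difference of -0.49 ± 0.04 (SE; 1.40-fold, adjusted p = 2.8e-09), and both other Cplx1 probe sets were called at -0.37 and -0.45. Vamp1, a vesicle SNARE, ran from 7.80 to 8.62 (median 8.22) in amygdala and from 8.08 to 8.82 (median 8.63) in hippocampus, a difference of -0.35 ± 0.09 (SE, adjusted p = 0.00659). Within the high line alone the Vamp1 difference of -0.16 was not called (adjusted p = 0.419), against -0.53 in the low line, and the arrays of the tissues overlapped. Snap25, the plasma membrane SNARE with 2 SNARE motifs, differed by -0.23 (adjusted p = 3.99e-04; not called in the low line alone, 0.10), while its other, dimmer probe set was called in the opposite direction at 0.42. Vamp2, the vesicle SNARE of most forebrain terminals, stood at 0.21 (adjusted p = 0.0649) with an other probe set at -0.25, so no direction can be given for it. Of the disassembly proteins, Nsf, the ATPase that pulls SNARE complexes apart, ran from 11.68 to 12.06 in amygdala and from 12.05 to 12.33 in hippocampus and differed by -0.32 ± 0.05 (SE, adjusted p = 8.28e-06). Its adaptors Napa (-0.10, adjusted p = 0.0625) and Napb (-0.03, adjusted p = 0.678) were not called. The other Napa probe set was called lower in amygdala, and 1 of the 5 other Napb probe sets was called higher.

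The priming factors held the member with the largest difference. Unc13c, the MUNC13-3 isoform known best from cerebellum, ran from 8.72 to 9.35 (median 9.10) in amygdala and from 6.87 to 7.70 (median 7.26) in hippocampus. There was more than 1 log2 unit between the lowest amygdala and the highest hippocampus array, and the means of 9.10 ± 0.18 and 7.28 ± 0.24 (SD, n = 12 each) differed by 1.82 ± 0.08 (SE; 3.54-fold, adjusted p = 1.91e-14). Both other Unc13c probe sets were called the same way, and the difference was 1.98 in the low line and 1.66 in the high line. Unc13b, another MUNC13 gene, differed the other way, running from 7.16 to 7.67 in amygdala and from 7.51 to 7.83 in hippocampus, by -0.26 ± 0.06 (SE, adjusted p = 0.00201), and in the high line alone it was not called (adjusted p = 0.178). Unc13a, the main isoform at forebrain glutamatergic synapses, stood at -0.17 (adjusted p = 0.209). Cadps, which primes dense-core vesicles, differed by -0.19 (adjusted p = 0.00148) but was called in neither line alone (low line adjusted p = 0.0740, high line 0.0995), and Cadps2 stood at -0.07 (adjusted p = 0.224).

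RAB3 proteins are small GTPases on the vesicle, and RIMs and rabphilin bind them at the active zone. Rab3c ran from 10.79 to 11.19 (median 11.10) in amygdala and from 10.49 to 10.77 (median 10.62) in hippocampus, without overlap, with a difference of 0.45 ± 0.05 (SE; 1.37-fold, adjusted p = 1.06e-07). Of its 4 other probe sets 1 was called, at 0.35, and the others lay between -0.05 and 0.14. Rab3b ran from 8.26 to 8.65 in amygdala and from 7.93 to 8.55 in hippocampus. Its difference was 0.24 ± 0.07 (SE, adjusted p = 0.0162), and it was called in neither line alone (adjusted p = 0.0637 in the low line and 0.374 in the high line). Rab3a (-0.07, adjusted p = 0.81), Rims1 (0.06, adjusted p = 0.468), Rims2 (0.07, adjusted p = 0.548) and Rph3a (0.17, adjusted p = 0.0982) were not called. For Rims1, Rims2 and Rph3a, 1 other probe set each was called higher in amygdala.

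Active zone scaffolds and endocytosis proteins lay on the hippocampus side through their brightest probe sets, 6 of 8 of them called. Over all genes 13.1% were called toward hippocampus, and of the brighter genes 51.8% were called in either direction. Synj1, the lipid phosphatase that strips clathrin from new vesicles, ran from 11.11 to 11.47 (median 11.30) in amygdala and from 11.56 to 11.87 (median 11.74) in hippocampus. Its ranges did not overlap, its difference was -0.42 ± 0.05 (SE; 1.34-fold, adjusted p = 3.08e-07), and its 3 other probe sets were also negative, 2 of them called at -0.69 and -0.44. Dnm1, the dynamin that pinches vesicles off, differed by -0.21 (adjusted p = 0.00134), endophilin Sh3gl2 by -0.16 (adjusted p = 0.0097) and amphiphysin Amph by -0.15 (adjusted p = 0.0135). Sh3gl2 (low line adjusted p = 0.131, high line 0.222) and Amph (0.0857 and 0.345) were called in neither line alone, and Dnm1 not in the high line (0.171). Only 1 of the 2 other Sh3gl2 probe sets had the same sign, and neither was called. The clathrin adaptor Snap91 stood at -0.05 (adjusted p = 0.441), and its other probe set had the opposite sign, without a call. Pclo, the giant scaffold piccolo, ran from 10.37 to 10.57 in amygdala and from 10.59 to 10.80 in hippocampus, a difference of -0.25 ± 0.04 (SE, adjusted p = 1.73e-05). Its other probe sets gave 0.42, called in the opposite direction, and 0.16, and with the mean of all 3 the difference was 0.11 (adjusted p = 0.120), so its direction also rests on the probe set. Erc2, which ties scaffold proteins together, differed by -0.19 (adjusted p = 0.00195) but was called in neither line alone (0.0592 and 0.153), and Bsn (bassoon) stood at -0.02 (adjusted p = 0.852). Of the 2 other Bsn probe sets, 1 was called lower in amygdala.

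The vesicular glutamate transporters went opposite ways. Slc17a6 (VGLUT2), typical of thalamic and other subcortical glutamatergic neurons, ran from 8.08 to 9.67 (median 9.09) in amygdala and from 7.21 to 8.08 (median 7.48) in hippocampus. The ranges only just missed each other, and the means of 8.98 ± 0.48 and 7.58 ± 0.32 (SD, n = 12 each) differed by 1.40 ± 0.16 (SE; 2.65-fold, adjusted p = 1.98e-07), with 1.53 on its other probe set. Slc17a7 (VGLUT1), typical of cortical and hippocampal glutamatergic neurons, ran from 8.38 to 9.13 (median 8.80) in amygdala and from 9.31 to 9.70 (median 9.45) in hippocampus. It was lower in amygdala on every array, by -0.63 ± 0.08 (SE; 1.55-fold, adjusted p = 7.29e-07), and by -0.55 in the low line and -0.71 in the high line. With Slc17a6 at 1.21 in the low line and 1.60 in the high line, both transporters kept their direction in each line.

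Arrays of the tissues did not overlap for 14 of the 46 genes (30.4%), against 7.12% of all genes and 17.7% of the brighter ones. Each line was also fitted alone, on 12 arrays. In the low line 20 members were called (15.1% of all genes) and in the high line 18 (18.0%), and 16 members were called in both with the same sign (34.8%, against 10.8% of all genes). Of the 27 called in both lines together, 6 were called in 1 line alone and 5 (Rab3b, Cadps, Erc2, Sh3gl2 and Amph) in neither. All 27 called members had the same sign in both lines, but a call on the mean of the 2 lines favours this, so it is no separate support. Of all 46 members, called or not, 41 had the same sign in both lines. Across the 46 genes, which are not independent replicates, the tissue differences of the 2 lines had a Pearson r of 0.962. No such sign count or correlation is given here for all genes, so neither is shown to be particular to these members.

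Of the members' 113 probe sets, 64 were called between the tissues (56.6%, against 25.8% of all probe sets). The 27 called genes have 36 other probe sets, on 19 of them; 28 of the 36 had the same sign, 20 were called the same way and 3, of Snap25, Pclo and Syngr1, were called the opposite way. Among the 19 genes not called, 10 had another probe set that was called, 14 such probe sets in all of 31. A gene that is not called through its brightest probe set is therefore not shown to be equal between the tissues.

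**Figure D3:**
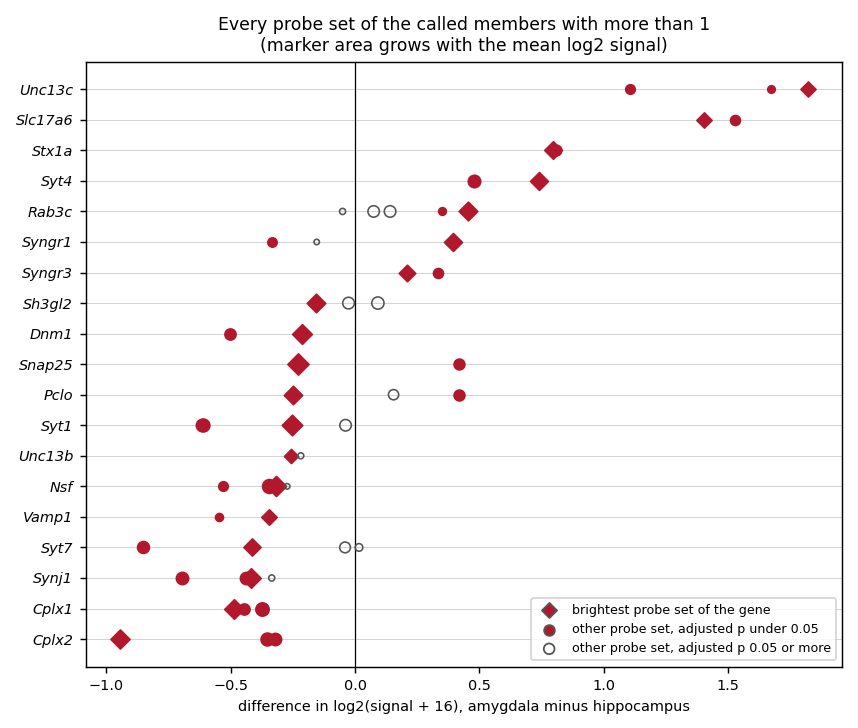
Amygdala minus hippocampus difference of log2(signal + 16) for every probe set of the 19 called genes that have more than 1; diamonds are the brightest probe set, circles the others, filled where the adjusted p was under 0.05, with a larger area for a brighter probe set. Probe sets of Unc13c, Stx1a, Cplx1 and Nsf lie on 1 side of 0, while those of Syngr1, Snap25 and Pclo lie on both sides.

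A wider list of 143 other vesicle and release genes, of which 133 were measured, gave 59 called between the tissues (44.4%), 34 toward amygdala and 25 toward hippocampus, with a median difference of 0.035. Over all genes these shares were 30.1% called, 17.0% toward amygdala and 13.1% toward hippocampus, and 51.8% of the brighter genes were called. The share of the list and those of several of its roles lay between the 30.1% and the 51.8%. The list was not limited to brighter genes, so these are not a matched set for it. Among 12 other synaptotagmins and relatives 4 were higher and 1 lower in amygdala. Syt9, a calcium sensor of fast release, stood at 1.13 (adjusted p = 1.02e-06), the effectors Rph3al at 0.67 and Sytl4 at 0.59. Neither effector was called with the mean of its probe sets (0.34 and 0.13) or in the low line alone. Of 11 other synapsins, membrane proteins and synucleins 4 were higher, with Syn3 (synapsin III) at 0.65 (adjusted p = 2.88e-10) and Svop at 0.48, and 2 lower, with Sypl at -0.32. Of 26 other SNAREs and their regulators 16 were not called, 1 was higher in amygdala and 9 were lower, among them the SNARE-binding Stxbp6 (-0.75, adjusted p = 2.34e-09), Stxbp3 (-0.37; called in neither line alone, adjusted p = 0.0733 and 0.0712) and Vamp7 (-0.37).

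Of 15 genes of the RAB cycle 4 were called, with Rab3ip, an exchange factor, at -0.44, Rab3d at -0.26 and Rab27a at 0.28, close to the threshold (adjusted p = 0.0477) and not robust: 12 of 35 alternatives kept the call, and with the mean of its probe sets the difference was 0.03 (adjusted p = 0.816). In the high line alone Rab3d stood at -0.13 and was not called (adjusted p = 0.505). Of 19 other active zone proteins 8 were higher and 5 lower in amygdala. Baiap3, a relative of the MUNC13 proteins, stood at 2.84 (adjusted p = 1.47e-15), Rims3 at 0.92 (adjusted p = 5.72e-08) and the liprin Ppfia2 at -0.79 (adjusted p = 2.33e-11). The other endocytosis genes did not lie on 1 side as the 5 members did: of 29, 7 were higher in amygdala, with Dnm3 at 0.70 (adjusted p = 2.96e-11) and Sh3gl3 (0.59), and 4 lower, with Eps15 at -0.65 (adjusted p = 2.47e-11). Of 6 other vesicular transporters 3 were higher in amygdala. Slc32a1, which loads GABA, stood at 1.31 (adjusted p = 2.71e-12) on its bright probe set and between -0.13 and -0.02 on 3 dim ones that were not called. Slc30a3, which loads zinc, stood at 0.59 (adjusted p = 3.76e-05) and Slc6a17 at 0.23 (adjusted p = 1.02e-04). Neither was called in the low line alone (adjusted p = 0.0635 and 0.127). The other Slc6a17 probe sets, at 0.079 and 0.076, were not called. Of 15 proton pump genes, whose gradient drives filling, 5 were higher and 2 lower, with Atp6v0b at 0.26, Atp6v1d at 0.15 (called in neither line alone, adjusted p = 0.350 and 0.0658) and Atp6v1a at -0.32. Atp6v0b was not called in the low line alone (adjusted p = 0.172).

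The lines were compared within each tissue, which is the question the selection poses. In amygdala 0 of the 46 genes were called by limma (0.0% of all genes were), and 2 had an unadjusted p under 0.05 (4.35%, against 5.63% of all genes). High minus low differences ran from -0.60 to 0.37 with a median of 0.05, against 0.007 for all genes, and 31 were above 0 and 15 below (67.4% above, against 52.3% of all genes). Without arrays 7 and 8, those of low actin ratio, 29 were above 0 and 17 below (63.0%, against 50.3% of all genes), with a median of 0.023; the part of RNA quality in these differences was not tested further. For 43 of the 46 the 95% interval lay within 0.5 log2 units of 0 on either side (72.1% of all genes), the exceptions being Syt2, Rab3a and Slc17a6. The arrays of the lines overlapped for every member, while 0.44% of all genes had no overlap. Over their probe sets, 5 of 113 had an unadjusted p under 0.05 (6.54% of all probe sets).

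The lowest p in amygdala was that of Rab3a, at 11.61 ± 0.52 in the low line and 11.00 ± 0.31 in the high line (SD, n = 6 each), a difference of -0.60 ± 0.23 (SE, limma adjusted p = 0.701). Syngr1 ran from 10.27 to 10.48 in the low line and from 10.44 to 10.79 in the high line, a difference of 0.20 ± 0.08 (SE, adjusted p = 0.726). Arrays 7 and 8 held its highest values (10.79 and 10.59). The Syngr1 difference was 0.13 without them and 0.01 with the mean of its probe sets, of which 1 stood at -0.18. Bsn stood at 0.19 (adjusted p = 0.777), and at 0.11 without arrays 7 and 8 and 0.04 with the mean of its probe sets, of which 1 stood at -0.18. Dnm1 stood at 0.14 (adjusted p = 0.800), at 0.06 without the 2 arrays and at -0.01 with the mean of its probe sets, the second of which stood at -0.16. Stx1a stood at 0.15 (adjusted p = 0.830) and Slc17a6 at 0.37 (0.832). Slc17a6 ran from 8.08 to 9.40 in the low line and from 8.75 to 9.67 in the high line, and its 95% interval went from -0.16 to 0.89. None of these 6 passed the test.

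In hippocampus 0 of the 46 were called by limma (0.0165% of all genes, 3 genes, were), and 5 had an unadjusted p under 0.05 (10.87%, against 8.69% of all genes). Differences ran from -0.56 to 0.42 with a median of -0.008, against 0.019 for all genes. Of the 46, 20 were above 0 and 26 below (43.5% above, against 55.0% of all genes). For 41 of the 46 the 95% interval lay within 0.5 of 0 (61.1% of all genes), the exceptions being Syt2, Doc2a, Rab3a, Unc13a and Unc13c. All members overlapped between the lines, against 0.654% of all genes without overlap. Of their 113 probe sets, 10 had an unadjusted p under 0.05 (8.97% of all probe sets).

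Doc2a had the lowest p in hippocampus. It ran from 6.41 to 6.92 (median 6.73) in the low line and from 6.71 to 7.51 (median 7.03) in the high line, a difference of 0.42 ± 0.14 (SE; interval 0.11 to 0.73, adjusted p = 0.438). Unc13c ran from 6.87 to 7.41 in the low line and from 7.20 to 7.70 in the high line, 0.27 ± 0.12 (SE, adjusted p = 0.542). For both, the hippocampus of the low line was the group with the lowest values of the 4, and neither passed. Syt7 stood at -0.23 (adjusted p = 0.479), Rab3a at -0.56 (0.544) and Stx1a at 0.14 (0.583). Syp stood at 0.18 (0.533), but its other probe set gave -0.25. The low line's hippocampal arrays also had more 18S signal (5859 to 7093 against 3600.0 to 5799.9) and higher dentate granule marker levels (8.36 to 8.67 against 8.08 to 8.32), without overlap in either, and the part of these in the line differences was not tested.

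**Figure D4:**
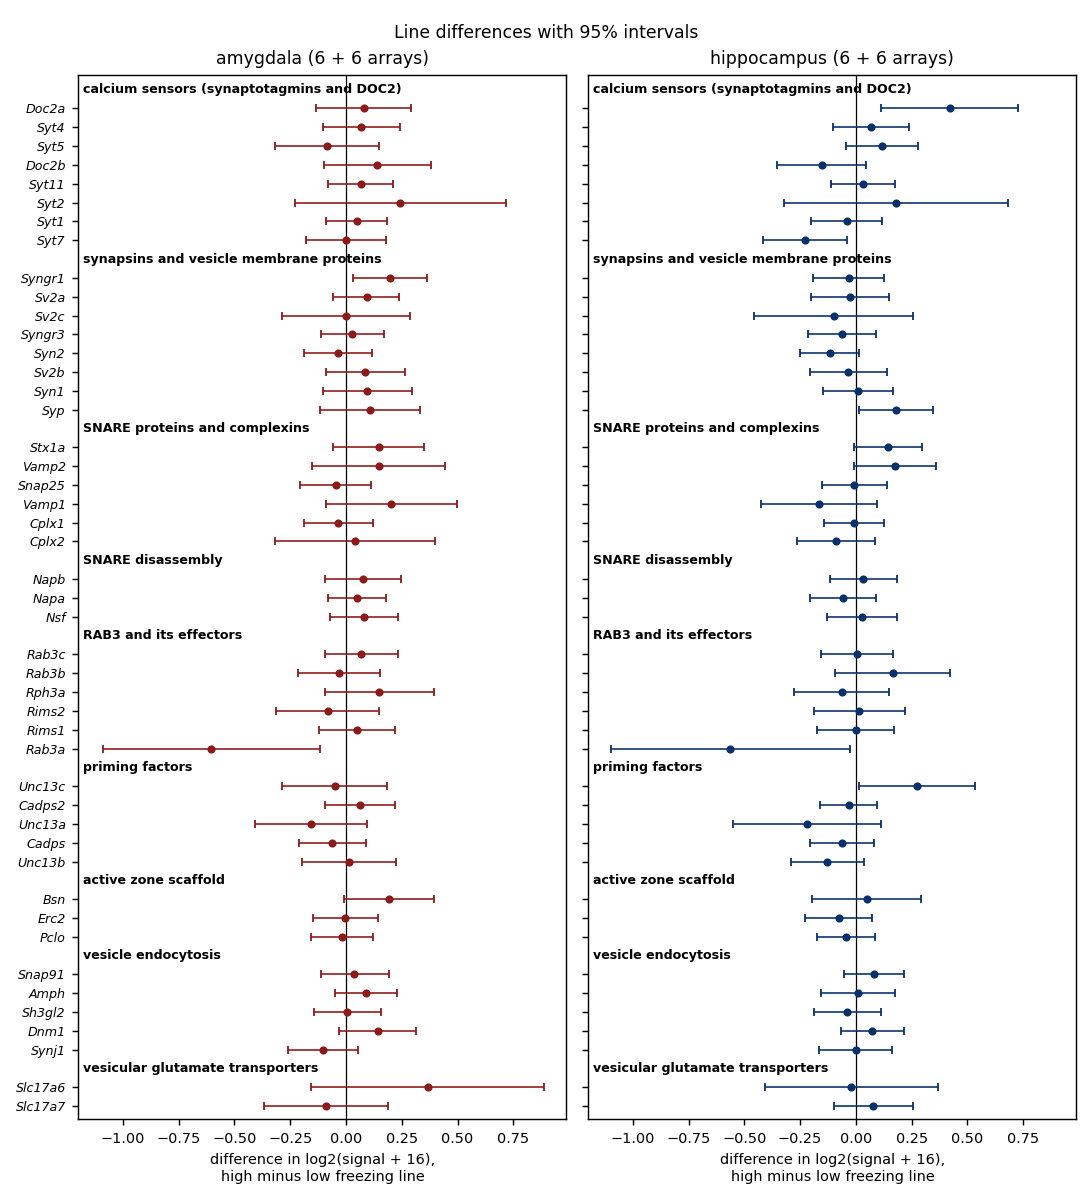
High minus low line difference of log2(signal + 16) for the 46 genes in amygdala and in hippocampus, with 95% intervals from limma on the 12 arrays of each tissue. Rab3a has wide intervals on the low side in both tissues (-0.60 and -0.56), and no gene was called.

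The Rab3a probe set with the highest mean was looked at array by array, after its values were seen. Gaps over all 24 arrays were not looked for in the other members, whose gaps were checked only within single groups. On the 24 arrays it ran from 10.41 to 12.03, with a gap of 0.39 between 11.43 and 11.83. The 8 arrays above the gap were all of the low line, 4 in each tissue, and the 16 below it were the other 4 low line arrays and all 12 of the high line. In amygdala of the low line, arrays 1 and 3 stood at 10.76 and 11.13 and the other 4 at 11.90 to 11.96, and in hippocampus of the low line arrays 2 and 4 stood at 10.64 and 11.43 and the other 4 at 11.83 to 12.03. Low arrays thus carried different numbers in the tissues. The second Rab3a probe set ran only from 10.48 to 10.86, with line differences of 0.00 in amygdala and 0.04 in hippocampus. The brighter one has an identifier type that the maker gives to sets with probes that may also match other sequences, so its values may not be of Rab3a alone. The set that stands for Stx1a is of the same type, and the other Stx1a set was called the same way between the tissues. The within-group SD of the brighter Rab3a set, 0.45, was the largest among the 46 genes, followed by Syt2 (0.427) and Slc17a6 (0.404).

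**Figure D5:**
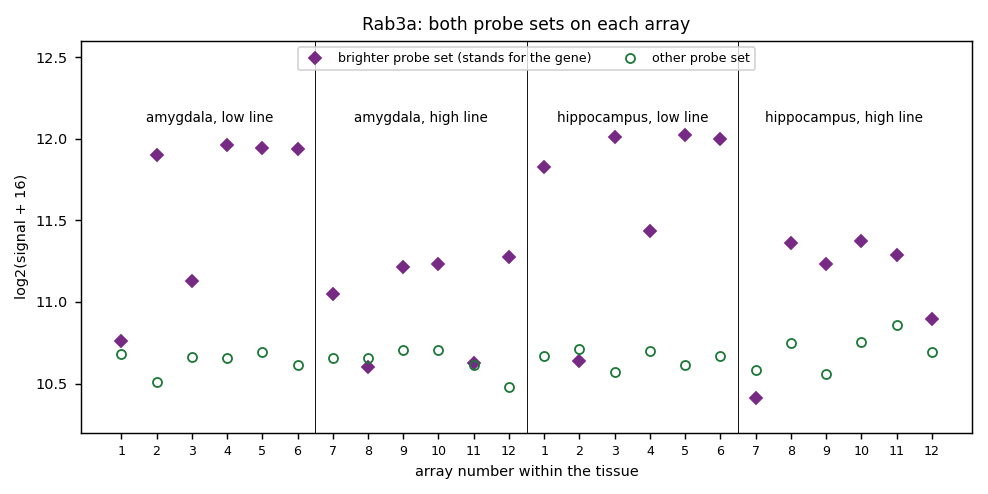
Log2(signal + 16) of both Rab3a probe sets on each of the 24 arrays, in order of tissue, line and array number. The brighter probe set (diamonds) reaches 11.83 or more on 8 arrays, all of the low line, while the other (circles) stays between 10.48 and 10.86 on all arrays.

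A difference of the line effect between the tissues was called by limma for 0 of the 46 genes (0.0% of all genes), and 2 had an unadjusted p under 0.05, against 7.01% of all genes. Lowest p were those of Syngr1, whose high minus low difference was larger in amygdala by 0.23 ± 0.10 (SE, adjusted p = 0.674), Doc2b (0.29 ± 0.14, adjusted p = 0.704), Syt7 (0.23 ± 0.11, adjusted p = 0.709) and Unc13c (-0.33 ± 0.16, adjusted p = 0.709).

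Of the 133 other vesicle and release genes, 0 were called between the lines in either tissue by limma, and an unadjusted p under 0.05 was reached by 9 in amygdala (6.8%, against 5.63% of all genes) and by 6 in hippocampus (4.5%, against 8.69%). In amygdala the lowest p were those of Unc13d (-0.55, adjusted p = 0.519), Vamp8 (-0.40, 0.522), the monoamine transporter Slc18a2 (-0.44, 0.628) and Tprgl (0.18, 0.716). In hippocampus they were those of Sncg (0.33, 0.487), Rab3gap1 (0.39, 0.496), Bin1 (-0.18, 0.50) and Dnm2 (-0.31, 0.529).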

How the data were processed

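Affymetrix arrays of total RNA were analysed from the intensity values the authors deposited, 1 linear value per probe set and array; the signal algorithm is not given in the sources used here. The values themselves show scaling of each array to a mean of 150 without the top and bottom 2%. Groups came from the sample descriptions. Of 45101 probe sets, 64 controls were left out, none for low signal. Symbols came from the platform annotation, updated through Entrez identifiers to GRCm38.p6. Intensities as deposited were taken as log2(value + 16), which understates differences of dim genes, and fitted with limma 3.58.1 (lmFit, eBayes) in R 4.3.3: 4 group means over 24 arrays for tissue and interaction, and the 12 arrays of a tissue for lines. Fits were tested on simulated data.

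The members and lists were chosen with earlier results of these data known. Between tissues up to 10 called members per direction are given in full, and between lines the 6 of lowest p, where fewer than 5 were called (interaction 4). Of other genes, up to 3 called per role and 4 of lowest p per tissue are named. Promoter motifs were counted by exact match. Rab3a by array was described after its values were seen. Alternatives were pseudocount, scaling, dim filter, trend, probe set choice, block, line and left-out arrays.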

Additional observations from a re-analysis of the deposited data

Results flagged for a closer look

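Of 184 groups of 6 arrays (46 genes in 4 groups), 10 held an array whose gap to its nearest neighbour took more of the group's range than the critical value of Dixon's test allows; chance gives about 1 in 20 groups. The largest gap was that of Rims2, with amygdala low line array 3 at 9.69 and the other 5 at 9.04 to 9.13. In amygdala of the low line, Syn1 was low on array 2 (9.93, others 10.24 to 10.39), Snap25 on array 1 (12.75, others 12.97 to 13.07), Rab3c on array 6 (10.79, others 11.03 to 11.16) and Sh3gl2 on array 4 (10.49, others 10.63 to 10.70). In hippocampus of the low line, Sv2a was low on array 6 (9.78, others 9.99 to 10.07) and Sv2b high on array 3 (11.41, others 11.16 to 11.25). In hippocampus of the high line, array 10 was high for Cplx1 (11.88, others 11.75 to 11.79) and Napb (11.13, others 10.88 to 10.96), and array 12 low for Pclo (10.59, others 10.70 to 10.74). Amygdala of the high line held none.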

How the results depend on the processing

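Between tissues the count of called members was 27 and ranged from 27 to 33 under other pseudocounts, scalings, trend, probe set choice, dim filter and without amygdala arrays 7 and 8 (low actin ratios), and from 27 to 29 with each array left out. With the mean of all probe sets 2 members turned direction, Syngr1 (-0.030, adjusted p = 0.710) and Pclo (0.109, adjusted p = 0.120). In the low line alone 20 members and 33 other genes were called, and in the high line alone 18 and 35, against 27 and 59 in both; these fits hold 12 arrays. Leaving out each array gave 52 to 58 other genes, and Rab27a lost its call in 16 of these fits. Line and interaction counts were 0 under every alternative run. No pairing of the tissues by array number was detected: same-numbered arrays had correlations of -0.055 to 0.045 and 2 of 12 correlated best with their own number. Such correlations between different tissues cannot show whether same-numbered arrays come from the same animal, and the labels do not say. The replicate block gave 27 members and 50 other genes.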
